A study of Mus musculus with 10 samples.

Results

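The 9 genes described here are the mouse Naip sensors Naip1, Naip2, Naip5 and Naip6, their adaptor Nlrc4, the caspases Casp1 and Casp4, the pore former Gsdmd and the cytokine Il18. They were chosen by symbol from the 13932 genes of the deposited count table. All 9 were listed, and all 9 passed the filter on low counts that left 12477 genes for testing. RNA came from 10 ileal epithelial samples, each from 1 mouse and sorted as live cells without the leukocyte marker CD45 and with the epithelial marker EpCAM. All 10 mice carried 2 floxed copies of H2-Ab1, which encodes an MHC class II beta chain. For the 5 mice called dIEC, the sample labels add Villin:Cre, a recombinase transgene expressed in cells of the gut lining. The 5 mice called WT were Villin:Cre-, that is, floxed controls. The series' own design text marks both genotypes Cre-, and the sample labels were followed. Each genotype had 3 males (WT 2, 4 and 6, dIEC 1, 3 and 5) and 2 females (WT 8 and 10, dIEC 7 and 9). No age is given. Because Cre was present in dIEC mice alone, its presence and the loss of H2-Ab1 cannot be told apart.

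An inflammasome is a protein assembly that forms in the cytosol when a sensor meets a microbial product. NAIP proteins bind bacterial flagellin or parts of type III secretion systems and then recruit NLRC4, which activates caspase-1. Caspase-1 matures interleukin-18 and cleaves gasdermin D, whose released part forms pores in the membrane, and mouse caspase-4, also known as caspase-11, reaches gasdermin D after sensing bacterial lipopolysaccharide. In the intestine this pathway is known for the expulsion of infected epithelial cells. Transcript levels say nothing about whether the proteins were active.

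The Naip genes are similar copies, which limits how reads can be assigned to them. In GRCm38 (mm10; GENCODE M21) they lie in tandem on the minus strand of chromosome 13: Naip2 from 100144063 to 100202092, Naip5 from 100211739 to 100246323, Naip6 from 100281121 to 100317674 and Naip1 from 100407764 to 100452869. The coding sequences of Naip5 and Naip6 were identical at 97.0% of aligned bases, and the other 5 pairs at 89.8% to 92.1%. The first 90 coding bases are shown because they display both how alike and how different the copies are, with capitals at bases that differ from Naip5.
Naip5: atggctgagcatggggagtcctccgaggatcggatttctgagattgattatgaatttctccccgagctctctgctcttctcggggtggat
Naip6: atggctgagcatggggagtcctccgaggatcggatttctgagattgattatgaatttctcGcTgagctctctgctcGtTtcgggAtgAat
Naip1: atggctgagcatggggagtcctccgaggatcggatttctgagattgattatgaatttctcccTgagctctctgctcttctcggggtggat
Naip2: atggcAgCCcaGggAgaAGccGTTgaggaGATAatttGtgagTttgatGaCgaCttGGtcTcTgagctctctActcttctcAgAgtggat
In this stretch Naip1 differed from Naip5 at 1 base, Naip6 at 6 and Naip2 at 26. Over the whole coding sequence the order was another, since Naip5 was closer to Naip6 (97.0%) than to Naip1 (92.1%). Of all windows of 50 bases in the longest coding transcript, 36.8% were shared with another gene for Naip5, 32.5% for Naip1, 21.5% for Naip6 and 19.4% for Naip2. Of the Naip5 windows, 22.3% occurred in Naip6. How shared reads were counted is not stated, so levels of single Naip genes are uncertain to the extent that such reads were split or dropped. For Nlrc4 the share was 1.13%, and for Casp1, Casp4, Gsdmd and Il18 it was 0.

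Upstream, Naip2 and Naip5 share the longest aligned stretch of the 6 pairs, shown as an example of how the copies resemble each other outside the coding sequence. The stretches end 2 and 9 bases before the RefSeq start sites (GRCm38.p6), at chr13:100202125-100202207 for Naip2 and chr13:100247346-100247428 for Naip5, both on the minus strand. Capitals mark the bases that differ.
Naip2: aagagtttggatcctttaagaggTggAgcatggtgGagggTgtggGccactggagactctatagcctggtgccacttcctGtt
Naip5: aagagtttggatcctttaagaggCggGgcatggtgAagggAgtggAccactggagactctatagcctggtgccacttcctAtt
The 83 bases were identical at 77 positions (92.8%). Naip1 aligned with Naip2 over 70 bases (87.1% identical) and with Naip5 over 44 bases (84.1% identical). The 250 bases before the Naip6 start held no aligned stretch over 25 bases with the other 3 genes. The level of Naip1 followed neither that of Naip2 (r = 0.072) nor that of Naip5 (r = -0.096) over the 10 libraries. In the 6 males alone r was 0.632 and 0.657. No link between upstream sequence and level was tested.

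Epithelial transcripts were abundant in all libraries. Epcam ran from 1476 to 2561 CPM (counts scaled to the library's TMM-adjusted total) and Vil1 from 2981 to 7340 CPM, while Ptprc, which encodes CD45, had 1 to 13 counts per library. The leukocyte list had 2 of 10 genes in the table, with summed levels of 3.41 to 7.31 CPM in WT and 2.30 to 10.7 CPM in dIEC. The list for macrophages, monocytes and neutrophils had 3 of 12, with 12.0 to 20.2 CPM in WT and 14.0 to 20.8 CPM in dIEC. All 5 erythroid genes were in the table, with summed levels of 0 to 24.1 CPM in WT and 13.8 to 28.4 CPM in dIEC. The mean log2 CPM of the 4 tested ones was -2.52 and -2.26 in WT females 8 and 10 against 0.942 to 1.96 in the other 8 libraries. H2-Ab1 was lower in all 5 dIEC libraries (0.767 to 3.11 CPM) than in any WT library (62.9 to 368 CPM; log2 fold change -6.39, SE 0.51, edgeR adjusted p = 0.000904). Total counts ran from 9174101 to 13484363 per library.

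All 9 genes were expressed in every library. On a scale of CPM per kilobase of exon, Gsdmd had the highest mean level (195 ± 60.4, SD, n = 10). Naip6 (118 ± 46.9), Casp1 (117 ± 33.5) and Naip5 (98.2 ± 42.1) came next, with means within their spread between libraries. Within each library, however, Naip6 was above Naip5 on this scale. The scale takes no account of windows shared with other genes, 36.8% for Naip5 and 21.5% for Naip6. If shared reads were dropped, Naip5 would lose more, so the order of these 2 genes is uncertain. Nlrc4 (39.7 ± 5.22), Naip2 (39.1 ± 6.08) and Il18 (30.6 ± 21.5) followed, also within their spread, followed by Naip1 (23.6 ± 5.04) and Casp4 (12.8 ± 3.90). The scale counts all annotated exon bases of a gene. For Casp4 these are 3710 bases, against 1435 in its longest coding transcript, and for Naip1 they are 5536 against 5464. The place of Casp4 in this order therefore depends on the length used. Il18 and Naip1 did not differ beyond their spread, since Il18 reached 87.3 in WT 8 and 12.6 to 42.9 elsewhere. Naip3, annotated as an unprocessed pseudogene between Naip6 and Naip1, reached 8.16 ± 2.77. Bulk RNA cannot tell fewer cells of a type from less RNA per cell, which applies to every level given here.

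**Figure D1:**
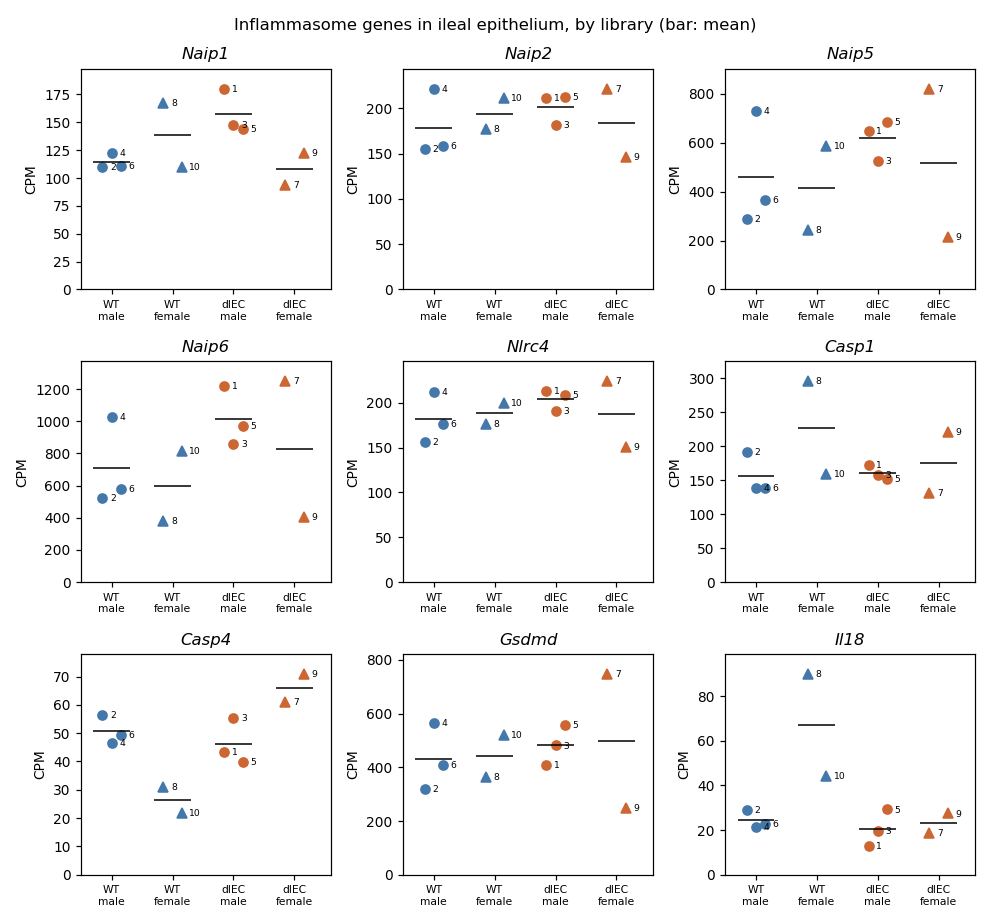
Level of each inflammasome gene (CPM, axis from 0) in the 10 libraries, by genotype and sex; circles are males, triangles females, numbers are the labels' replicate numbers and bars are means. Naip5, Naip6 and Gsdmd are high in dIEC 7 and low in dIEC 9. Casp4 and Il18 are the genes in which the WT females lie apart from the WT males, as in 19.8% of tested genes.

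In the comparison of genotypes, which asks whether the epithelium of dIEC mice differed from that of WT mice, none of the 9 genes passed edgeR's quasi-likelihood test at an adjusted p under 0.05, and 0.016% of all tested genes did. DESeq2 and limma voom also called 0 of the 9, with 0.0321% and 0.016% of all tested genes called. At an unadjusted p under 0.05 there was 1 member, Il18, against 2.85% of all tested genes. The fitted log2 fold change was above 0 for 7 genes and below 0 for 2, with a median of 0.14, against 0.013 over all tested genes. No member separated the genotypes without overlap, as 0.313% of tested genes did. A missed threshold does not show that the levels were equal.

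**Figure D2:**
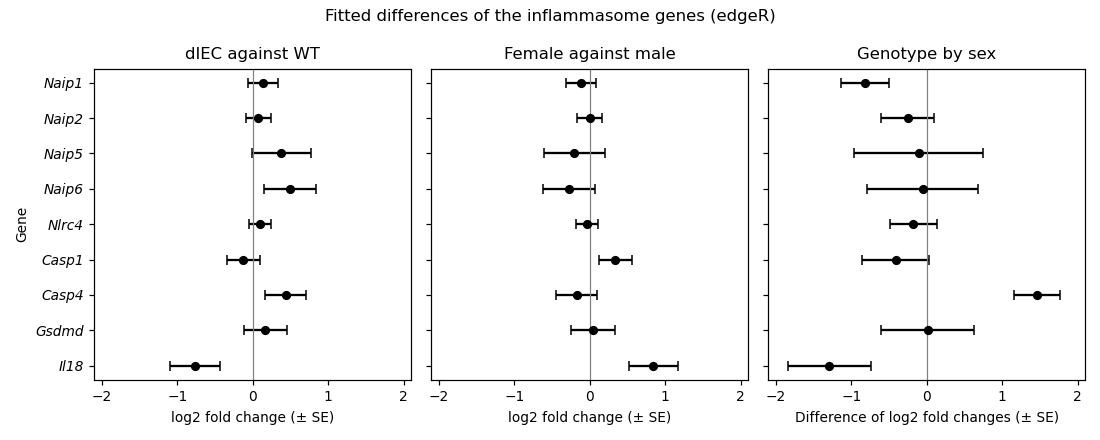
Fitted log2 fold change ± SE of each gene (edgeR) for dIEC against WT, for female against male and for the interaction, which is the dIEC against WT difference in females minus that in males. None passed an adjusted p of 0.05; Casp4 (1.46) and Il18 (-1.29) lie farthest from 0 in the interaction.

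The sensors Naip5 and Naip6, which recognise flagellin, had the widest ranges of the receptor genes. Naip5 stood at 289, 731 and 366 CPM in WT males 2, 4 and 6 and at 243 and 589 CPM in WT females 8 and 10. In dIEC it stood at 648, 525 and 685 CPM in males 1, 3 and 5 and at 822 and 213 CPM in females 7 and 9. The 2 dIEC females thus held both the highest and the lowest value. Means were 443 ± 209 CPM in WT and 579 ± 230 CPM in dIEC (SD, n = 5 each), with a log2 fold change of 0.38 (SE 0.39, edgeR adjusted p = 0.999891). Leaving out 1 library moved it between 0.037 (without dIEC 7) and 0.64 (without WT 4), and it was 0.24 without WT 2 or WT 8, 0.62 without WT 10 and 0.60 without dIEC 9. With limma voom it was 0.68.

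Naip6 stood at 526, 1028 and 577 CPM in WT males 2, 4 and 6, at 380 and 818 CPM in WT females 8 and 10, at 1220, 859 and 971 CPM in dIEC males 1, 3 and 5 and at 1249 and 402 CPM in dIEC females 7 and 9. Its log2 fold change was 0.50 (SE 0.34, edgeR adjusted p = 0.999891). Leaving out 1 library moved it between 0.20 (without dIEC 7) and 0.70 (without WT 10). The groups overlapped, from 380 to 1028 CPM in WT and from 402 to 1249 CPM in dIEC. Of the WT libraries only WT 4 lay above the lowest dIEC male (859 CPM). The lowest dIEC library, dIEC 9, lay below every WT library but WT 8. With the proliferation score defined below as covariate, the genotype differences had smaller standard errors but were not called. They were 0.49 for Naip5 (SE 0.10, edgeR adjusted p = 0.0863) and 0.58 for Naip6 (SE 0.11, edgeR adjusted p = 0.0801). With the mature enterocyte score they were 0.39 and 0.50 (edgeR adjusted p = 0.305 and 0.293). With limma voom both were 0.68 (limma voom adjusted p = 0.202 and 0.192). The highest library exceeded the lowest 3.85-fold for Naip5 and 3.29-fold for Naip6.

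Naip2, a sensor of the type III secretion rod, and the adaptor Nlrc4 varied little. Naip2 stood at 155, 222, 158, 177 and 211 CPM in WT 2, 4, 6, 8 and 10 and at 211, 181, 212, 222 and 146 CPM in dIEC 1, 3, 5, 7 and 9. Nlrc4 (chromosome 17, 74425438 to 74459142, minus strand) stood at 157, 212, 176, 177 and 200 CPM in the same WT libraries and at 214, 190, 209, 224 and 151 CPM in the dIEC libraries. Both were lowest in dIEC 9 and next lowest in WT 2. Their coefficients of variation over the 10 libraries were 15.5% and 13.1%, below the median of 20.0% for tested genes with a mean of at least 10 CPM, while those of Naip5 and Naip6 were 42.8% and 39.9%. Genotype differences were 0.076 (SE 0.17) for Naip2 and 0.099 (SE 0.15) for Nlrc4 on the log2 scale.

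Naip1, a sensor of the type III secretion needle, followed another order. It stood at 110, 122 and 111 CPM in WT males 2, 4 and 6, at 167 and 110 CPM in WT females 8 and 10, at 180, 147 and 144 CPM in dIEC males 1, 3 and 5 and at 93.7 and 122 CPM in dIEC females 7 and 9. The 3 dIEC males lay above the 3 WT males, a separation that 6.61% of tested genes showed in one direction or the other. The genotype difference was 0.14 (SE 0.19) over both sexes (0.035 to 0.32 over the fits that left out 1 library, lowest without dIEC 1 and highest without WT 8), and 0.46 (SE 0.13, edgeR adjusted p = 0.995363) in males alone.

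Of the caspases, Casp1 (chromosome 9, 5298517 to 5307265, plus strand) stood at 192, 139, 139, 296 and 159 CPM in WT 2, 4, 6, 8 and 10 and at 173, 158, 152, 131 and 221 CPM in dIEC 1, 3, 5, 7 and 9. It was highest in WT 8 and dIEC 9, where Naip5 was lowest, and lowest in dIEC 7, where Naip5 was highest. The genotype difference was -0.13 (SE 0.22) on the log2 scale, without WT 8 it was 0.081 and without dIEC 7 it was 0.013.

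Casp4 begins 1562 bases after the end of Casp1 (5308828 to 5336783, plus strand) but did not follow it over the libraries (Pearson r = -0.152, Spearman rho = -0.139; permutation p = 0.668 and 0.71, adjusted p = 0.802 and 0.798, n = 10; r = -0.118 without WT 8 and dIEC 9). Casp4 stood at 56.4, 46.6 and 49.4 CPM in WT males 2, 4 and 6 and at 31.0 and 21.8 CPM in WT females 8 and 10. In dIEC it stood at 43.3, 55.4 and 39.7 CPM in males 1, 3 and 5 and at 60.9 and 71.0 CPM in females 7 and 9. WT females were below every other library, and dIEC females above every other library. Separation without overlap was seen in 17.8% of tested genes between dIEC and WT females, in 19.8% between WT females and males and in 8.08% between dIEC females and males. With both sexes the genotype difference was 0.44 (SE 0.27, edgeR adjusted p = 0.999891); without dIEC 7 and dIEC 9 it was -0.14, and without WT 10 it was 0.21.

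Gsdmd (chromosome 15, 75862327 to 75867408, plus strand) stood at 320, 565 and 410 CPM in WT males 2, 4 and 6, at 366 and 520 CPM in WT females 8 and 10, at 408, 481 and 558 CPM in dIEC males 1, 3 and 5 and at 748 and 250 CPM in dIEC females 7 and 9. As for Naip5, the 2 dIEC females were the extremes. The genotype difference was 0.16 (SE 0.28, edgeR adjusted p = 0.999891), and without dIEC 7 it was -0.12.

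Il18 (chromosome 9, 50554827 to 50581840, plus strand) stood at 28.9, 21.5 and 22.9 CPM in WT males 2, 4 and 6 and at 90.0 and 44.2 CPM in WT females 8 and 10. In dIEC it stood at 13.0, 19.5 and 29.2 CPM in males 1, 3 and 5 and at 18.6 and 27.4 CPM in females 7 and 9. The 2 WT females were above every other library. Separation without overlap was seen in 19.8% of tested genes between WT females and males and in 17.8% between dIEC and WT females. Means were 41.5 ± 28.5 CPM in WT and 21.5 ± 6.70 CPM in dIEC (SD, n = 5 each), with a log2 fold change of -0.77 (SE 0.33, edgeR adjusted p = 0.999891). Leaving out each library in turn gave -1.02 to -0.46, the latter without WT 8. Bco2, a carotenoid oxygenase gene, overlaps Il18 on the opposite strand with 0 shared exonic bases. It was also highest in WT 8 and WT 10 (160 and 129 CPM; 57.6 to 93.9 CPM elsewhere). Whether counting used the strand is not stated, and the part of Bco2 reads in the Il18 counts was not tested.

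The comparison of females with males likewise called 0 of the 9 genes by edgeR, where 0.0401% of all tested genes passed. DESeq2 and limma voom also called 0, with 0.0721% and 0.0481% of all tested genes called, and no member separated the sexes without overlap, as 0.946% of tested genes did. At an unadjusted p under 0.05 there was again 1 member, Il18 (log2 fold change 0.84, SE 0.33, edgeR adjusted p = 0.999635), against 4.44% of all tested genes. Without WT 8 it was 0.41. Casp1 differed by 0.34 (SE 0.22), and by 0.050 without WT 8 and 0.51 without dIEC 7. The other 7 genes lay between -0.27 and 0.042. With the proliferation score as a covariate, edgeR called 2 members lower in females, Naip5 (-0.79, SE 0.11, adjusted p = 0.00591) and Naip6 (-0.75, SE 0.13, adjusted p = 0.0128), while 3.45% of all tested genes were called lower and 5.28% were called in either direction. With the mature enterocyte score in its place neither was called (Naip5 -0.35, edgeR adjusted p = 0.207; Naip6 -0.39, edgeR adjusted p = 0.242).

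The interaction asks whether the genotype difference depended on sex. None of the 9 genes passed in edgeR, where 0.00801% of all tested genes did. At an unadjusted p under 0.05 there were 3 members, Casp4, Naip1 and Il18, against 2.1% of tested genes. For Casp4 the interaction was 1.46 (SE 0.30, edgeR adjusted p = 0.999997). DESeq2 called it (1.48, SE 0.35, adjusted p = 0.0218) among 0.128% of tested genes, and so did edgeR with the mature enterocyte score as covariate (1.40, adjusted p = 0.0255), among 0.112%. limma voom called 0 members and 0% of tested genes. For Naip1 the interaction was -0.82 (SE 0.32) and for Il18 -1.29 (SE 0.55), neither called by any of these tests. Without WT 8 they were -0.44 and -0.63. The interaction rests on 2 females per genotype. Many other transcripts lay on the same side as Casp4 in this term. All 13 tested interferon gamma response genes, all 4 tested erythroid genes and all 8 goblet genes lay above 0. Of these, 7, 4 and 1 had an unadjusted p under 0.05 in edgeR, and 1 erythroid gene was called. All 25 proliferation genes, all 6 transcription factors of inflammasome genes and 9 of 10 Paneth genes also lay above 0. At an unadjusted p under 0.05 in edgeR there were 0, 1 and 0 of them. Of the mature enterocyte genes 9 lay above and 11 below 0, and of the tested tuft genes 1 above and 6 below. Enteroendocrine genes had 6 above and 3 below, with 3 at an unadjusted p under 0.05 in edgeR. For caspases and regulators 3 lay above and 5 below, and for gasdermins and membrane rupture 3 above and 4 below. Other sensors and adaptors had 4 above and 4 below, the tested IL-1 family genes 4 and 2, and epithelium genes 4 and 5. The median over all tested genes was 0.041. The part of these genes in the Casp4 result was not tested.

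Of the 9 members, 5 rose and fell together: Naip2, Naip5, Naip6, Nlrc4 and Gsdmd. Over the 10 libraries and 36 pairs, a family examined after the values were seen, Naip5 followed Naip6 (Pearson r = 0.974, Spearman rho = 0.939; permutation p = 4e-05 and 0.00017, adjusted p = 0.00072 and 0.00306; r = 0.948 without WT 8 and dIEC 9). Reads shared between these genes could raise that value, and their part was not tested. Nlrc4, which shares 0 windows with the Naip genes, followed Naip2 (r = 0.964, rho = 0.903; permutation p = 1e-05, the smallest that can be given, and 0.00071, adjusted p = 0.00036 and 0.00381; r = 0.935 without WT 2 and dIEC 9). Nlrc4 also followed Naip5 (r = 0.947, rho = 0.927; permutation p = 9e-05 and 0.00038, adjusted p = 0.00108 and 0.00381; r = 0.988 without WT 8 and dIEC 9). In the 6 males alone these 3 values of r were 0.947, 0.955 and 0.984.

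Gsdmd joined this group, and Casp1 ran against it. Gsdmd followed Naip5 (r = 0.902, rho = 0.915; permutation p = 2e-04 and 0.00074, adjusted p = 0.0018 and 0.00381; r = 0.864 without WT 8 and dIEC 9). Casp1 and Naip5 were inversely related (r = -0.791, rho = -0.758; permutation p = 0.0048 and 0.0152, adjusted p = 0.0157 and 0.0457). That r was -0.554 without WT 8 and dIEC 9 and -0.429 in males, so this relation rests largely on those libraries. The same held for Casp1 and Naip6 (r = -0.771, then -0.382 and -0.185). Casp1 and Gsdmd had r = -0.715 and rho = -0.830 (permutation p = 0.0188 and 0.00499, adjusted p = 0.0521 and 0.0225). Their r was -0.791 without WT 8 and dIEC 9 and -0.729 in males. With Naip2 and Nlrc4, r was -0.499 and -0.608, neither past the threshold. Naip1 did not follow the other sensors over the 10 libraries (r of -0.096 to 0.072), although in the 6 males r was 0.632 to 0.833. Casp1 and Il18, enzyme and substrate, had r = 0.687 (rho = 0.479; permutation p = 0.0369 and 0.167, adjusted p = 0.0887 and 0.287), which was 0.117 without WT 8 and dIEC 9.

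**Figure D3:**
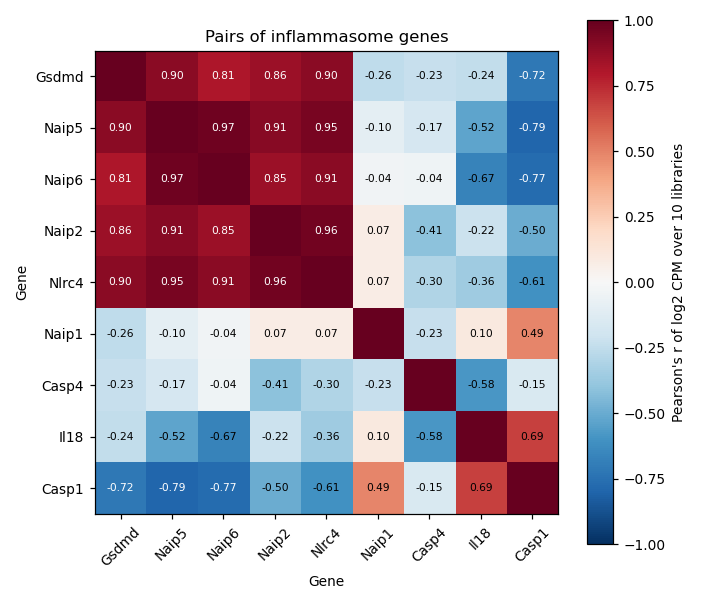
Pearson's r of log2 CPM for each pair of the 9 genes over the 10 libraries (colour scale from -1 to 1). Gsdmd, Naip5, Naip6, Naip2 and Nlrc4 form a block with r from 0.81 to 0.97, Casp1 is negative against all 5, and Naip1 lies near 0 against the other sensors and Nlrc4.

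The same 5 genes rose with the transcripts that mark absorptive villus cells, as did many other genes. A mature enterocyte score, the mean log2 CPM of 20 genes such as Alpi, Sis and Apoa4 with no member among them, ran from 9.46 in dIEC 9 to 11.2 in dIEC 7. Relations of the 9 genes to 3 scores made 27 tests, over which p-values were adjusted. Gsdmd followed the score most closely (r = 0.964, rho = 0.988; permutation p = 1e-05 for both, the smallest that can be given, adjusted p = 0.00027 for both; r = 0.960 without dIEC 7 and dIEC 9 and 0.969 in males). Naip5 (r = 0.900, adjusted permutation p = 0.00776), Nlrc4 (r = 0.880, adjusted permutation p = 0.00776), Naip2 (r = 0.879, adjusted permutation p = 0.00778) and Naip6 (r = 0.786, adjusted permutation p = 0.0334) also rose with it. Their rho values were 0.891, 0.782, 0.915 and 0.745, and without dIEC 7 and dIEC 9 r was 0.819, 0.770, 0.795 and 0.635. Casp1 fell with the score (r = -0.732, rho = -0.806; adjusted permutation p = 0.0334 and 0.0249; r = -0.628 without dIEC 7 and dIEC 9). Naip1, Casp4 and Il18 showed no relation past the threshold (r of -0.351 to -0.194). Among all tested genes outside the score, 17.9% had an r at least as high as that of Naip6 and 20.2% one at least as low as that of Casp1, so a relation of this size is common in these libraries. An r as high as that of Gsdmd was found in 0.731%.

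**Figure D4:**
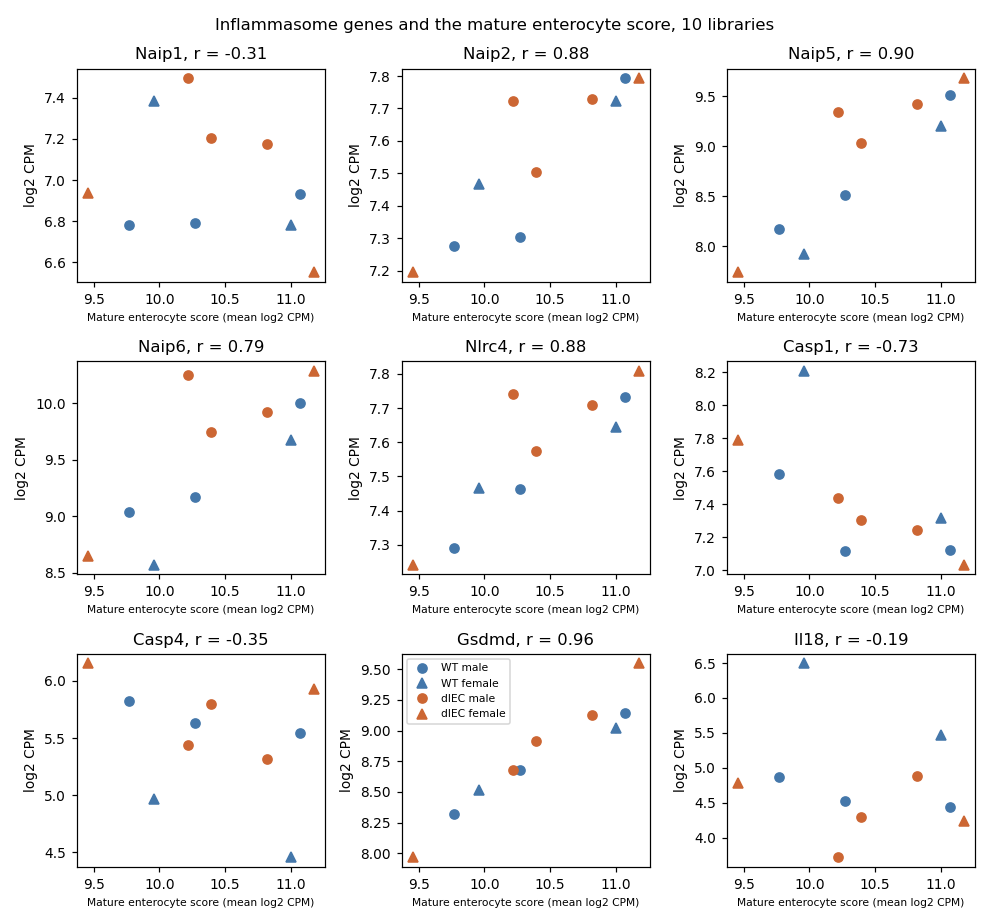
Log2 CPM of each gene against the mature enterocyte score (mean log2 CPM of 20 genes) in the 10 libraries, with Pearson's r; colours mark genotype, circles males and triangles females. The points of Gsdmd rise nearly in a line (r = 0.96), those of Casp1 fall, and Il18 is set apart by WT 8.

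The proliferation score, the mean of 25 cell cycle genes of the crypt, ran against the enterocyte score (r = -0.899, n = 10). Gsdmd (r = -0.861, rho = -0.855; adjusted permutation p = 0.00776 and 0.015), Naip2 (r = -0.842, adjusted permutation p = 0.013), Nlrc4 (r = -0.782, adjusted permutation p = 0.0334) and Naip5 (r = -0.742, adjusted permutation p = 0.0392) fell as it rose. Naip6 did not pass (r = -0.638, adjusted permutation p = 0.106). An r at least as low as that of Naip5 was found in 17.9% of tested genes outside the score.

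The interferon gamma response score, the mean of 13 genes such as the guanylate-binding proteins, ran from 0.713 in WT 8 to 3.96 in dIEC 7. Casp4, itself known as inducible by interferon, rose with it by rank (rho = 0.806, adjusted permutation p = 0.0249) and missed the threshold by Pearson's measure (r = 0.713, adjusted permutation p = 0.0509; r = 0.739 without WT 8 and dIEC 7, and 0.450 in males). Il18 fell with it by Pearson's measure (r = -0.780, adjusted permutation p = 0.0334) but not by rank (rho = -0.588, adjusted permutation p = 0.166), and r was -0.482 without WT 8 and dIEC 7, so that relation rests on those libraries. An r as high as that of Casp4 was found in 1.64% of tested genes outside the score, and one as low as that of Il18 in 1.18%.

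The genes most like each member over the 10 libraries, out of 12211 compared, are given as a description with no test. Gsdmd was closest to Krt20, a keratin of differentiated epithelium (r = 0.988), then Slc6a8 and Stk25. The genes most like Naip5 included Jmjd1c (r = 0.994) and Itgb5 (r = 0.993), and those most like Naip6 included Nos1ap (r = 0.983). Naip2 was closest to Ubxn2a (r = 0.980) and Nlrc4 to Man1a, a mannosidase of the Golgi (r = 0.991). Casp4 was closest to Nos2, the inducible nitric oxide synthase (r = 0.947), then Intu and Ubd. Il18 was closest to Ndufa11 and Ndufa6, subunits of respiratory complex I (r = 0.983 and 0.978). Casp1 was closest to Spg21 (r = 0.980) and Naip1 to Esco1 (r = 0.922).

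Other genes of the pathway were read from 5 lists, and none of their tested members was called in any of the 3 comparisons by edgeR. Of 14 other sensors and adaptors, 8 were tested, with 4 above and 4 below 0 in dIEC against WT. Nlrp6, an epithelial sensor, stood at 282 to 521 CPM, with a genotype difference of -0.20 (SE 0.16) and a sex difference of 0.36 (SE 0.16). Nlrp9b, a sensor of viral RNA together with Dhx15, ran from 36.7 CPM in WT 8 to 280 CPM in WT 4. Pycard, which encodes the adaptor ASC that links sensors to caspase-1, ran the other way, from 78.3 CPM in dIEC 7 to 308 CPM in WT 8, as Casp1 did. Dhx15 differed by 0.023 (SE 0.23) between genotypes.

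All 8 caspases and regulators were tested, with 5 above 0 and 3 below in dIEC. Serpinb1a, an inhibitor of inflammatory proteases, reached 925 CPM in WT 8 and 460 to 581 CPM in the other 9 libraries. Txnip stood at 411 to 598 CPM, Casp8 at 110 to 208 CPM, Dpp8 at 99.7 to 143 CPM and Cflar at 75.4 to 143 CPM, with genotype differences of -0.064 to 0.090 on the log2 scale.

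Of 8 genes for gasdermins and membrane rupture, 7 were tested, with 3 above 0 and 4 below in dIEC and a median of -0.30. Gsdmc4 stood at 366 and 200 CPM in WT females 8 and 10 and at 25.4 to 74.6 CPM in WT males, against 16.6 and 118 CPM in dIEC females 7 and 9. Its sex difference was 1.56 (SE 0.54) and its genotype difference -1.05 (SE 0.54), neither past the threshold (edgeR adjusted p = 0.999635 and 0.999891). Its neighbours in the family Gsdmc2 and Gsdmc3, named after their values were seen, had genotype differences of -1.02 and -1.03. Gsdme ran from 41.5 to 145 CPM, and Chmp4b, a subunit of the ESCRT-III membrane repair machinery, from 175 to 247 CPM.

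Of 12 IL-1 family ligands, inhibitors and receptors, 6 were tested, with 4 above 0 and 2 below in dIEC and a median of 0.042. All 6 transcription factors were tested and lay above 0 in dIEC, with a median of 0.21, none of them called. Irf1 was highest in dIEC 7 at 528 CPM and stood at 232 to 354 CPM elsewhere. Irf8 and Nfkb1 differed by 0.22 (SE 0.15) and 0.046 (SE 0.13).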

How the data were processed

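The authors deposited raw counts per gene for 10 libraries. Per the labels' protocols, ribosomal RNA was depleted (RiboZero gold) and libraries were stranded (TruSeq). Per the submitters' processing notes, Novoalign and the mm10 build were used. The counter, its annotation and its strand setting are unstated. The precision rests on 9174101 to 13484363 counts per library and on 5 mice per genotype, 2 of them female. The p-values of the fits weigh a difference against the spread between mice. Permutation p-values weigh a relation over the 10 libraries against shuffled orders of them.

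From the counts, filterByExpr with genotype as the group kept 12477 of 13932 genes (89.6%). edgeR 4.0.16 (R 4.3.3) with TMM factors and robust quasi-likelihood fits tested sex plus genotype, and their product for the interaction, with Benjamini-Hochberg adjustment over all tested genes and a threshold of 0.05. A standard error is the absolute log2 difference divided by the root of the F statistic. Log2 CPM used a prior count of 2. Relations used permutation tests with 100000 resamples, two-sided. Sequences came from GENCODE M21 and RefSeq and were compared with Biopython 1.88.

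The members and lists were chosen with earlier results of these data known. Pathway genes named are H2-Ab1 and the 16 tested genes of 5 lists with the highest mean CPM, and each member is set beside the 3 genes most like it, of which part are named; results for some of the genes this rule takes are not reported here. A pair of settings were not fully specified in the plan and were settled with results in view. The planned wording leaves the quasi-likelihood estimator at the tool's default, which was kept after the newer estimator had also been run. The filter was set by genotype after filtering by the full design had been seen (12966 genes, and 13286 with the product). Both other settings were kept as alternatives. Further alternatives were RLE factors, DESeq2 1.42.0, limma 3.58.1 voom with sample weights, no filter, other covariates, subsets and leaving out each library. The edgeR fits were also run on simulated counts with known changes, and the outcome is not reported here.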

Additional observations from a re-analysis of the deposited data

Results flagged for a closer look

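In 36 groups of libraries (9 genes in WT, dIEC, males and females), the extreme library lay far from the rest in 1, where chance would give about 1.8. This was Naip1 in WT, where WT 8 stood at 167 CPM (166.927) and the nearest library at 122 CPM.

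For Casp4 the genotype difference depended on sex by DESeq2 (interaction 1.48, adjusted p = 0.0218142), with dIEC females above WT females and the males overlapping. edgeR's quasi-likelihood test gave an adjusted p of 0.999997 for the same term, and over the alternatives that left out 1 library the lowest was 0.558.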

How the results depend on the processing

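No paired analysis was possible because WT and dIEC libraries share no replicate numbers. The newer edgeR estimator and the filter by the full design, both added after the data were seen, left every count of called genes as it was. Counts of called genes moved under other settings. For dIEC against WT, 2 genes became 4 with DESeq2, 5 with the proliferation score as covariate and 0 in females only. For female against male, 5 became 9 with DESeq2, 659 with the proliferation score, 13 with the mature enterocyte score and 9 without dIEC 7 and dIEC 9. For the interaction, 1 became 16 with DESeq2, 0 with limma voom and 14 with the mature enterocyte score. Members called went from 0 to 2 for sex with the proliferation score, and from 0 to 1 for the interaction with DESeq2 and with the mature enterocyte score. Leaving out each library gave 2 to 2 genes called for genotype, 5 to 5 for sex and 0 to 1 for the interaction, with 0 members called. For genotype the range was -0.21 to 0.081 for Casp1 and -0.12 to 0.35 for Gsdmd. For sex it was -0.39 to 0.044 for Naip1, -0.091 to 0.13 for Naip2, -0.62 to 0.072 for Naip5, -0.13 to 0.083 for Nlrc4, -0.37 to 0.094 for Casp4 and -0.31 to 0.28 for Gsdmd. For the interaction it was -0.59 to 0.013 for Naip2, -1.39 to 0.67 for Naip5, -1.10 to 0.60 for Naip6, -0.49 to 0.078 for Nlrc4, -0.84 to 0.16 for Casp1 and -0.99 to 0.59 for Gsdmd.

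Signs of uncalled log2 differences turned as follows. For genotype in females only, Naip1 was -0.35, Naip2 -0.073 and Nlrc4 -0.0032. In males only Casp1 was 0.031 and Casp4 -0.15, and without dIEC 7 and dIEC 9 they were 0.040 and -0.14. For sex in WT only, Naip1 was 0.28, Naip2 0.12 and Nlrc4 0.054, and without dIEC 7 and dIEC 9 they were 0.28, 0.13 and 0.055. With limma voom, Naip2 was 0.23, Naip5 0.34, Naip6 0.20 and Nlrc4 0.14, and with no filter Naip2 was 0.0014. Casp4 was 0.49 in dIEC only, and Gsdmd was -0.34 with the proliferation score and -0.022 with the mature enterocyte score. For the interaction with limma voom, Gsdmd was -0.21. Without the 2 farthest libraries, r with the interferon gamma score became 0.427 for Naip1, -0.455 for Naip2, -0.442 for Naip5, -0.232 for Naip6, -0.450 for Nlrc4, 0.687 for Casp1 and -0.620 for Gsdmd, and r of Naip1 with the proliferation score became -0.258. The causes were not tested.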
